A study of Homo sapiens with 12 samples.

Results

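Glutathione S-transferases are described here through 10 genes, GSTA4, GSTP1, GSTM2, GSTM3, GSTM4, GSTO1, GSTK1, MGST1, MGST2 and MGST3, taken by gene symbol from the 59542 rows of the deposited count table. All 10 were found once and all 10 were among the 17947 genes kept by a filter on low counts. RNA was measured in SKOV-3, an established human epithelial ovarian adenocarcinoma line, in 4 groups of 3 libraries. Parental cells were wild type and without drug resistance; parental knockout cells lacked both KDM5A and KDM5B by label, a pair of genes for histone H3 lysine 4 demethylases. Resistant cells were a cisplatin-resistant derivative with wild-type KDM5 genes, and resistant knockout cells were that derivative with the same double knockout. The labels do not say how resistance or the knockouts were made, whether a line is 1 clone or a pool, whether cisplatin was present at harvest, or whether the 3 libraries of a group are separate cultures. The p-values therefore set differences only against the scatter between these libraries, and that scatter may be technical.

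Glutathione S-transferases join the tripeptide glutathione to electrophilic compounds, which are then exported from the cell. The cytosolic enzymes fall into classes named by letters: alpha (GSTA4), mu (GSTM2, GSTM3, GSTM4), omega (GSTO1) and pi (GSTP1), with a separate kappa enzyme, GSTK1, in mitochondria and peroxisomes. MGST1, MGST2 and MGST3 belong to an unrelated family of membrane proteins. Conjugation of platinum drugs to glutathione has long been studied as a route of drug inactivation in ovarian carcinoma, with GSTP1 the enzyme most often discussed. The transcription factor NRF2 binds antioxidant response elements near many of these genes.

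To show where such elements lie, promoter windows from 250 bases before to 50 after the start were taken from RefSeq (GRCh38.p14), which matched 9 of the 10 genes with 11 windows; MGST2 was not matched. The core of the antioxidant response element (TGACNNNGC, either strand) was in 4 of these 11 windows, each of a different gene, and in 13.3% of all 35116 windows of the same length. The 250 bases before the start are printed for the gene with the highest fold in resistant cells, the most abundant 2 genes, and a mu-class gene with no core, with cores in capitals.
GSTA4 promoter, chr6:52995285-52995534, minus strand: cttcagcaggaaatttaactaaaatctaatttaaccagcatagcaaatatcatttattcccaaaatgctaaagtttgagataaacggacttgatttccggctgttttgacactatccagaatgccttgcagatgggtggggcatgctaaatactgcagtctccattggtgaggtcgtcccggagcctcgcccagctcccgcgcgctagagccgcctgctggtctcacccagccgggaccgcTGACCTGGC
GSTO1 promoter, chr10:104254642-104254891, plus strand: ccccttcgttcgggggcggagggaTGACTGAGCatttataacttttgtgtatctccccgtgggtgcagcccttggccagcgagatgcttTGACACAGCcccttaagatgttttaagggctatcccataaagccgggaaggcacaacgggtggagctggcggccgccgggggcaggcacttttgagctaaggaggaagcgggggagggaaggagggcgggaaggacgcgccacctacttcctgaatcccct
GSTP1 promoter, chr11:67583562-67583811, plus strand: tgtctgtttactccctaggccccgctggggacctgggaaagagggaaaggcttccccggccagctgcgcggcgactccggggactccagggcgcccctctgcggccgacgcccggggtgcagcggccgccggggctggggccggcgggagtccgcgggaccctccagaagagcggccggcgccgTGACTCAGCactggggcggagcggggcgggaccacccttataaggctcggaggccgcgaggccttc
GSTM3 promoter, chr1:109741039-109741288, minus strand: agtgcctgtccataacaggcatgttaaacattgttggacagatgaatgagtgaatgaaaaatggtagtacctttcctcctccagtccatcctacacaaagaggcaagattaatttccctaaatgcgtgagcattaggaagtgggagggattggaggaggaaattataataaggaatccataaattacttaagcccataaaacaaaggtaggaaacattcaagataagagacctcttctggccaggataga
The GSTA4 core ended at the base before the start (positions -9 to -1), and GSTO1 held 2 cores, at -226 to -218 and -161 to -153. In GSTP1 the core at -66 to -58 overlapped an AP-1 site (TGACTCA, either strand), a motif found in 4.9% of all windows. MGST1 had a core after the start in 1 of its 3 windows, at 31 to 39. No match was found in the windows of GSTM2, GSTM3, GSTM4, GSTK1 and MGST3. The GSTM3 window had 41.3% GC and a CpG observed-to-expected ratio of 0.08, whereas 7 of the 11 windows had GC above 50% and a ratio above 0.6, as did 46.8% of all windows. These matches are descriptions of letters in a window and were not tested against the counts.

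Each library held between 15659352 and 19706754 counts, with 5.34% to 10.68% of reads from mitochondrial genes in 11 libraries and 16.33% in parental knockout library 3. KDM5A was lower in knockout libraries of both backgrounds (two-sided exact permutation test within backgrounds, p = 0.005, the smallest it can give), and KDM5B was not separated (p = 0.445). The adenocarcinoma identity was checked on 10 epithelial and ovarian markers, of which 8, 9, 7 and 9 reached 1 CPM (counts scaled to library size, defined under the processing) in parental, parental knockout, resistant and resistant knockout cells. These markers moved with resistance in both directions. By edgeR 3 were higher and 4 lower in resistant than in parental cells, beside 15.2% higher and 12.8% lower over all genes. Log2 fold changes were 2.62 for KRT8 and 4.45 for WT1 (on 2 parental reads), and -6.6 for KRT19, -5.86 for MSLN and -3.09 for EPCAM. The summed level of 9 fibroblast markers was 1.97 to 8.8 CPM in parental, 2.56 to 28.7 in parental knockout, 350 to 960 in resistant and 2527 to 4470 in resistant knockout libraries. COL1A1 alone had a mean of 671 CPM in resistant and 3651 CPM in resistant knockout cells. Of 8 fibroblast markers tested 5 were higher and 1, DCN, was lower (-4.90, and -3.23 among knockouts). Of 8 leukocyte markers 1, CD68, reached 1 CPM, with means of 54.2, 43.7, 12 and 16.1 CPM in the 4 groups in the order above; it was lower in resistant cells (-2.18, adjusted p = 0.00601, edgeR) and among knockouts (-1.44, 0.044). PTPRC, the pan-leukocyte marker, and all 6 endothelial markers were below 1 CPM in every group mean. In bulk RNA, fewer cells of a type and less RNA per cell cannot be told apart, and the part of these marker levels in the results below was not tested. Parental and parental knockout libraries numbered 3 stood apart from the other two of their groups, as described for single genes below.

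Resistant cells carried more GSTA4, GSTM4, GSTM3 and GSTO1 RNA and less MGST1 RNA than parental cells. Of the 10 genes 4 were higher (GSTA4, GSTM4, GSTM3, GSTO1) and 1 was lower (MGST1) by edgeR's quasi-likelihood test with Benjamini-Hochberg adjustment over all genes at 0.05. Over all genes tested, 28.0% were called, 15.2% higher and 12.8% lower. The groups did not overlap for 7 genes, 5 higher and 2 lower, a state that 45.5% of all genes shared (23.7% higher and 21.8% lower). At an unadjusted p under 0.05 there were 8 of the 10, beside 40.1% of all genes. The median log2 fold change of the 10 genes, chosen with earlier results of these data known, was 0.98, beside 0.02 over all genes.

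GSTA4 (ENSG00000170899, GRCh38 chromosome 6, 52977948 to 52995378, minus strand) encodes an alpha-class enzyme known for conjugating 4-hydroxynonenal, a product of lipid peroxidation. It had 1, 0 and 6 reads in parental libraries 1, 2 and 3, and 152, 285 and 164 in the resistant ones. In CPM the resistant libraries stood at 8.87, 17.4 and 8.62 and the parental ones at 0.06, 0 and 0.31. All resistant libraries lay far above all parental ones. The log2 fold change was 6.39 ± 0.74 (SE), an 83.8-fold difference (adjusted p = 7.3e-05 by edgeR), and it rests on 7 parental reads. It ranged from 5.88 to 8.23 when each library was left out and passed the test each time.

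The mu-class genes lie together on chromosome 1, with GSTM4 (109656081 to 109674836) and GSTM2 (109668022 to 109709551) on the plus strand and GSTM3 (109733932 to 109741038) on the minus strand. GSTM4 measured 5.2, 5.57 and 11.9 CPM in parental libraries 1, 2 and 3, and 24.1, 26.4 and 19.6 CPM in resistant ones. The lowest resistant library was above the highest parental one, which was number 3. The difference was 1.62 ± 0.43 on the log2 scale (adjusted p = 0.0135, edgeR), and it missed the threshold without parental library 1 (1.41, 0.0544) or 2 (1.45, 0.0615). GSTM3, an enzyme best known from testis and brain, measured 6.15, 8.65 and 9.27 CPM in parental and 25.1, 20.5 and 11.1 CPM in resistant libraries. The groups did not overlap, and resistant library 3 stood closest to the parental ones. GSTM3 rose by 1.24 ± 0.35 (adjusted p = 0.0199, edgeR). It missed the threshold without parental library 1 or 2 (0.075 and 0.0546) and without resistant library 1 or 2 (0.0807 and 0.0616).

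GSTM2, a close relative of GSTM4, measured 2.69, 0.32 and 1.45 CPM in parental and 13, 6.21 and 4.89 CPM in resistant libraries. The groups did not overlap, but the spread within each was wide, and the difference of 2.42 ± 0.87 did not pass (adjusted p = 0.0536, edgeR). It did pass with DESeq2 (adjusted p = 0.0102), limma-voom (0.0477) and the replicate block (0.0279), and under 8 of 21 alternatives in all. GSTM2 shares 375 exon bases with GSTM4 and 559 with GSTM1 on the same strand, and how reads in shared bases were counted is not given in the sources used here, so its level and that of GSTM4 are uncertain. GSTM1 itself had 0 reads in all 12 libraries.

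GSTO1 (chromosome 10, 104235356 to 104267459) encodes the omega-class enzyme, which reduces arsenic compounds rather than mainly conjugating. It measured 51.7, 61.5 and 72.3 CPM in parental and 79.6, 192 and 100.1 CPM in resistant libraries. Resistant library 2 was high among its group, and the groups did not overlap. GSTO1 rose by 1.00 ± 0.33 (adjusted p = 0.0363, edgeR). Without resistant library 2 the difference was 0.54 (adjusted p = 0.21), and without parental library 1 or 2 it was 0.88 (0.118) or 1.00 (0.102). With the libraries of these groups fitted alone it was 1.02 (0.0575).

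Among the membrane enzymes, MGST1 (chromosome 12, 16347142 to 16609259), a microsomal and mitochondrial transferase and peroxidase, moved down. It measured 50.6, 37.9 and 68.7 CPM in parental and 29.4, 24.3 and 18.9 CPM in resistant libraries. Every resistant library was below every parental one. MGST1 fell by 1.12 on the log2 scale (SE 0.31, adjusted p = 0.0185, edgeR). Without the parental library numbered 3 the difference was -0.9 (adjusted p = 0.0604), and it also failed the test without resistant library 2 or 3.

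MGST2 and MGST3, which can also make leukotriene C4, showed the mark of the parental libraries numbered 3. MGST2 measured 5.14, 5.44 and 23.9 CPM in parental and 29.9, 24.8 and 12.2 CPM in resistant libraries. Parental library 3 lay inside the resistant range and resistant library 3 between the parental ones. The difference was 0.95 ± 0.70 (adjusted p = 0.333, edgeR), and without parental library 3 it was 2.04 (0.0448). MGST3 measured 52.5, 53.2 and 95.4 CPM in parental and 145, 160 and 86.7 CPM in resistant libraries. The difference was 0.96 ± 0.39 (adjusted p = 0.0825, edgeR), and without parental library 3 it was 1.28 (0.0403). MGST2 shares 252 exon bases with MAML3 on the opposite strand, and whether counting used strand is not given in the sources used here.

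GSTP1 (chromosome 11, 67583595 to 67586656) encodes the pi-class enzyme that is abundant in many tumours. It measured 166, 177 and 185 CPM in parental and 68.8, 143 and 112 CPM in resistant libraries. All resistant libraries lay below all parental ones, but the difference of -0.71 ± 0.33 did not pass (adjusted p = 0.123, edgeR; approximate 95% interval -1.35 to -0.07). GSTK1 had overlapping groups, at 67.6 ± 18.5 CPM (SD, n = 3) in parental and 74.7 ± 4.92 in resistant cells. Its difference of 0.14 ± 0.28 had an interval of -0.41 to 0.70.

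**Figure D1:**
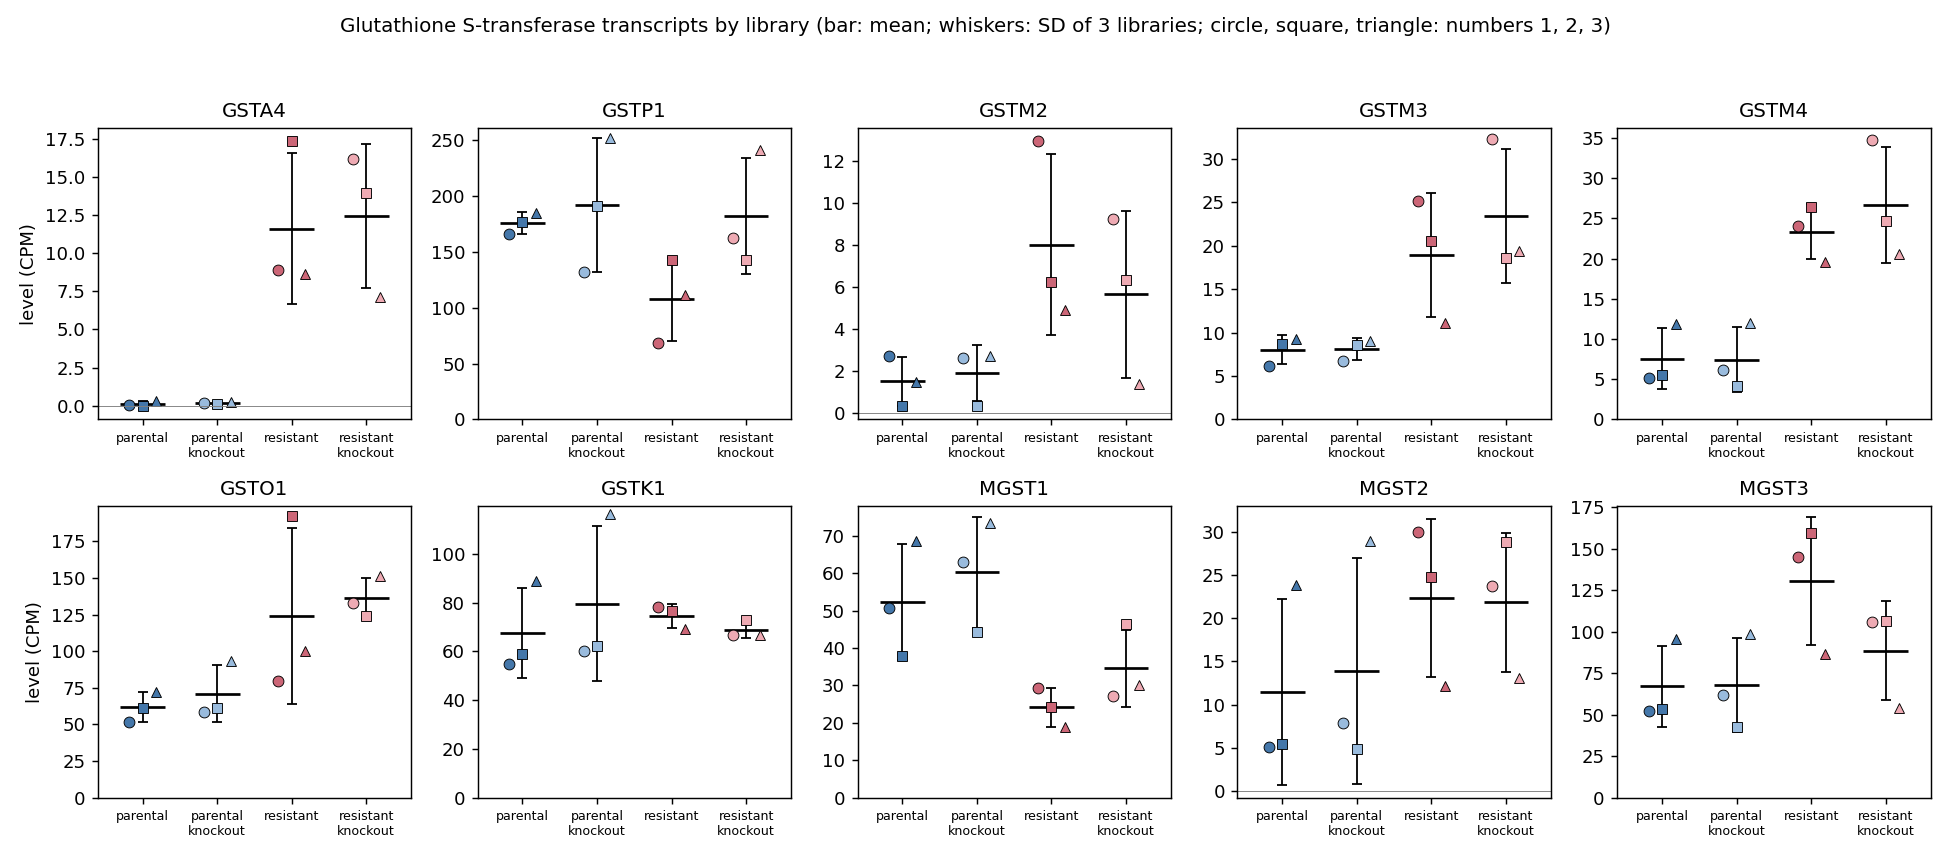
Level of each of the 10 genes in CPM (linear axis) in the 12 libraries, with 4 groups on the x axis, the mean of 3 libraries as a bar and the SD as whiskers. GSTA4 is near 0 in both parental groups and between 7.16 and 17.4 CPM in both resistant groups, and the triangles of MGST2 in the parental groups, at 23.9 and 28.9 CPM, stand far above the other two libraries.

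The comparison of resistant with parental cells was repeated between the knockout groups, which share no library with it. The repeat is not independent, as both comparisons use the same parental line and resistant derivative and 1 shared estimate of the spread. Same-numbered parental and parental knockout libraries also deviated together. Here 3 genes were higher (GSTA4, GSTM4, GSTM3) and 0 lower, beside 23.9% of all genes called, 13.6% higher and 10.2% lower. The groups did not overlap for 4 genes, all higher, beside 37.2% of all genes in either direction, 20.3% higher and 16.9% lower. At an unadjusted p under 0.05 there were 5 of the 10, beside 37.2% of all genes. The median of the 10 genes was 0.80.

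GSTA4 had 4, 2 and 4 reads in the parental knockout libraries and 327, 252 and 116 in the resistant knockout ones. In CPM these were 0.2, 0.13 and 0.23 against 16.2, 14 and 7.16. The groups stood far apart, by 5.99 ± 0.71 on the log2 scale (adjusted p = 0.000119, edgeR). GSTM4 measured 6.16, 4.2 and 12 CPM in parental knockout and 34.7, 24.6 and 20.6 CPM in resistant knockout libraries. Again number 3 was the highest parental library, the groups did not overlap, and the difference was 1.84 ± 0.43 (adjusted p = 0.00852). GSTM3 measured 6.71, 8.58 and 9.08 CPM in parental knockout and 32.3, 18.6 and 19.4 CPM in resistant knockout libraries. It rose by 1.53 ± 0.35 (adjusted p = 0.00815).

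GSTO1 measured 58.7, 61 and 93.7 CPM in parental knockout and 133, 124 and 151 CPM in resistant knockout libraries. The groups did not overlap, and the difference of 0.94 ± 0.33 missed the threshold (adjusted p = 0.0532, edgeR); with the replicate block it passed (0.0392). MGST1 measured 63.1, 44.2 and 73.5 CPM in parental knockout and 27.3, 46.4 and 30.1 CPM in resistant knockout libraries. Resistant knockout library 2 lay above parental knockout library 2, and the difference was -0.80 ± 0.31 (adjusted p = 0.0764, edgeR); without resistant knockout library 2 it was -1.09 (0.0495). The other 5 genes had overlapping groups, with log2 differences of 1.58 ± 0.84 for GSTM2, 0.65 ± 0.70 for MGST2, 0.39 ± 0.39 for MGST3, -0.08 ± 0.32 for GSTP1 and -0.21 ± 0.28 for GSTK1. With library size as the only scaling the sign of GSTP1 turned (0.08), and the median of all genes moved from -0.002 to 0.148.

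**Figure D2:**
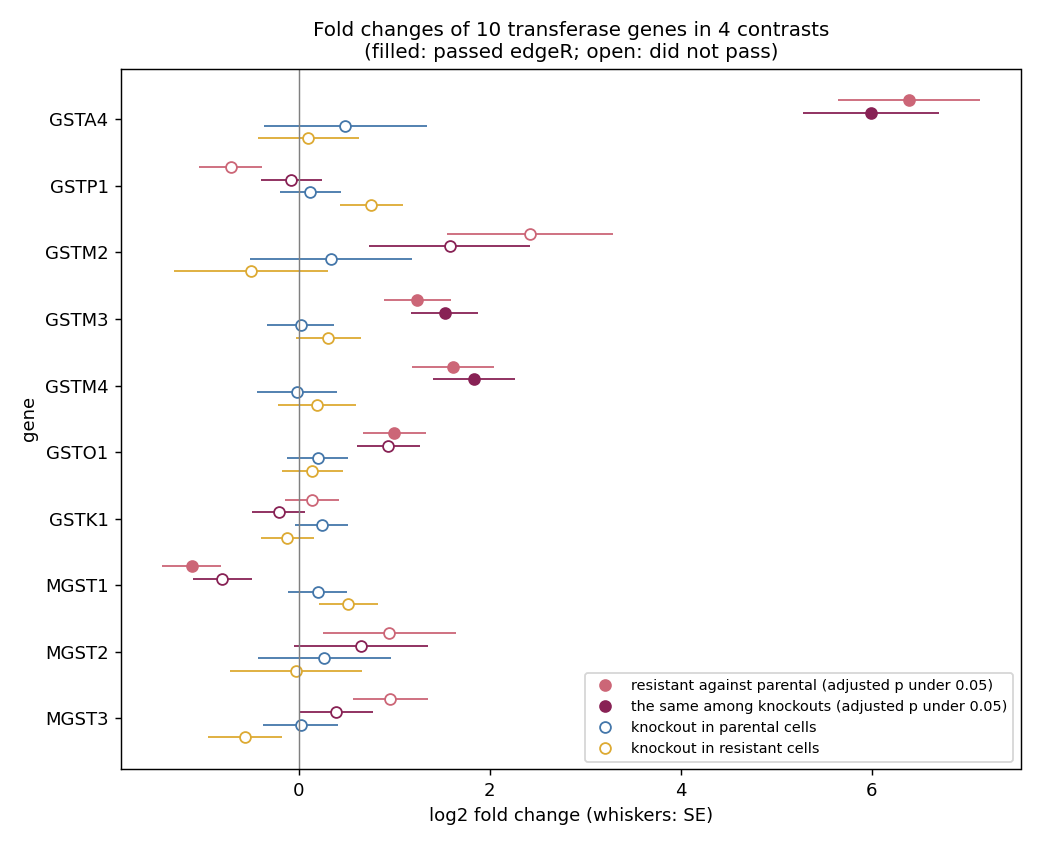
Log2 fold change (x axis, whiskers SE) of each gene (y axis) in 4 contrasts, filled where edgeR's adjusted p was under 0.05. GSTA4 lies at 6.39 and 5.99 in the comparisons of resistant with parental cells, and all points of the knockout contrasts are open, between -0.56 and 0.76.

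The double knockout was compared within each background. In parental cells 0 of the 10 genes were called by edgeR and 0 had an unadjusted p under 0.05, beside 0% of all genes called and 3.00% at that unadjusted p; DESeq2 and limma-voom also called 0 of the 10. Differences ran from -0.02 for GSTM4 to 0.49 for GSTA4. All 10 genes had overlapping groups, whereas 6.59% of all genes did not overlap (3.20% higher and 3.38% lower). Same-numbered libraries of these groups deviated together, so the pairs were read too. GSTK1 and MGST1 were higher in the knockout library of all 3 pairs, and 0 of the 10 were lower in all 3. The share of all genes with such pairs was not taken, so these counts are not read as a knockout effect. With the replicate block within backgrounds 154 genes were called over the whole table and 0 of the 10, and with the block on the parental libraries alone 1206 and 0, where MGST1 stood at 0.22 (adjusted p = 0.243) and GSTK1 at 0.21 (0.267). The GSTA4 value rests on 7 and 10 reads and has an interval of -1.17 to 2.15. For the abundant genes the intervals were narrower, at -0.51 to 0.76 for GSTP1 and -0.43 to 0.84 for GSTO1.

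In resistant cells 0 of the 10 genes were called by edgeR, DESeq2 or limma-voom, beside 0.212% of all genes by edgeR, and 1 gene, GSTP1, had an unadjusted p under 0.05, as did 7.95% of all genes. GSTP1 measured 162, 143 and 242 CPM in resistant knockout libraries against 68.8, 143 and 112 in resistant ones, a difference of 0.76 ± 0.33 (adjusted p = 0.581, edgeR). The groups met at library 2 of each, at 142.75 and 142.88 CPM. They did not overlap on this scale and did overlap when CPM was taken over all reads in place of the reads of tested genes, so the separation is not used as a result; 15.2% of all genes did not overlap in this contrast (8.02% higher and 7.17% lower). The other differences ran from -0.56 ± 0.39 for MGST3 to 0.52 ± 0.31 for MGST1. With the replicate block within backgrounds 939 genes were called over the whole table and 0 of the 10. In that fit GSTP1 stood at 0.79 (adjusted p = 0.0888, edgeR) and MGST3 at -0.57 (0.0824). MGST1 measured 29.4, 24.3 and 18.9 CPM in resistant and 27.3, 46.4 and 30.1 in resistant knockout libraries, and those groups overlapped.

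The difference of the knockout effects between backgrounds, which is also the difference between both comparisons of resistant with parental cells, was called for 0 of the 10 genes (0.0279% of all genes; 0 of the 10 and 3.78% of all at an unadjusted p under 0.05; edgeR). It was largest for GSTM2, at -0.84 ± 1.18, and was 0.63 ± 0.46 for GSTP1 and 0.31 ± 0.44 for MGST1. The higher count of called genes without the knockout is therefore not shown to differ from that among knockouts.

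Levels of different genes were compared per kilobase of the longest annotated transcript. In parental cells GSTP1 led with 105 ± 5.68 CPM per kb (SD, n = 3), 42.7% of the sum over the 10 genes, followed without overlap by GSTO1 at 58.8 ± 9.76. The GSTP1 share depended on the length used and was 55.3% with the union of exons. GSTK1, MGST1 and MGST3 came next at 25.1, 24.3 and 21.6 CPM per kb, with GSTK1 overlapping MGST1 and MGST1 overlapping MGST3. With the union of exons as the length these were 16, 7.04 and 7.98, and GSTK1 no longer overlapped the next gene. GSTA4 was last, at 0.0727 ± 0.0971. In resistant cells GSTO1 stood at 118 ± 56.9 CPM per kb (40.0% of the sum) and GSTP1 at 64.1 ± 22.1 (21.7%), with overlapping libraries. Those shares were 39.1% and 30.1% with the union of exons. GSTA4 reached 6.84 ± 2.93 CPM per kb there, overlapping GSTM4 at 5.86 ± 0.869. In resistant knockout cells GSTO1 (129 ± 13.2) and GSTP1 (108 ± 31.1) overlapped again, and with the union of exons as the length GSTP1 came first (95.3 against 80.5 CPM per kb).

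**Figure D3:**
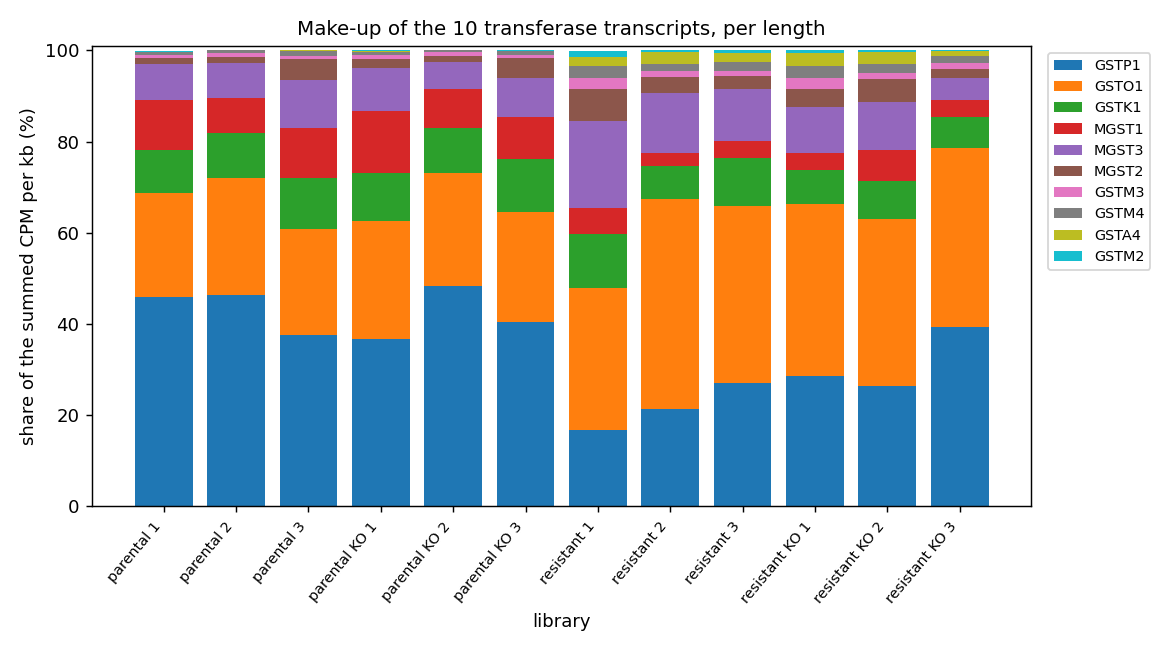
Share of each gene in the summed CPM per kb of the 10 genes (y axis, %), by library (x axis), per length of the longest transcript. GSTP1 takes 36.7% to 48.4% in the 6 parental and parental knockout libraries and 16.8% to 39.3% in the 6 resistant and resistant knockout ones.

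The libraries numbered 3 stood apart within the parental groups. The ratio of number 3 to the mean of numbers 1 and 2 was 4.51 in parental and 4.53 in parental knockout cells for MGST2, 2.21 and 2.32 for GSTM4, and 1.81 and 1.89 for MGST3. Number 3 differed in the resistant groups too. The ratio in resistant and resistant knockout cells was 0.45 and 0.50 for MGST2, 0.57 and 0.51 for MGST3, and 0.51 and 0.17 for GSTM2. For GSTP1 it was 1.05 and 1.58. The resistant libraries numbered 3 were left out singly, not together. Without both parental libraries numbered 3, an alternative chosen after seeing the data, 6 genes were called in resistant against parental cells and 5 among knockouts. Calls over all genes rose too, from 5030 and 4281 of 17947 with every library to 5275 and 4945 of 18483 without these libraries. Without them MGST2 was called in both comparisons, at 2.04 and 1.71, MGST3 in the first, at 1.28, and MGST1 was not called.

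Over the 12 libraries the genes with the most similar pattern of log2 CPM to GSTA4, among 11228 protein-coding genes with a mean of at least 5 CPM, were ALDH1A1 (Pearson r = 0.989), ACTBL2 (0.988) and BVES (0.986). For GSTM4 they were PROC and TMEM92 (both 0.983) and SEPTIN6 (0.982), and for GSTM3 NIPSNAP1 (0.968), MPI (0.967) and GXYLT2 (0.966). For GSTO1 they were HSBP1 (0.978), SUCLG1 (0.968) and BLOC1S1 (0.959), and for MGST1 ARHGEF7 (0.939), ZBED6CL (0.91) and EFNA5 (0.909). Among the 10 genes themselves GSTA4 and GSTM4 had r = 0.94 and MGST2 and MGST3 r = 0.89. The points share the 4 groups and the library scaling, so these values are descriptions.

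The other transferase genes were read from a list of 16, of which 15 were matched in the table and 7 tested. In resistant against parental cells 1 was higher and 2 lower, beside 15.2% higher and 12.8% lower over all genes. GSTA1, an alpha-class gene beside GSTA4, had 0 reads in the 6 parental and parental knockout libraries and reads in all 6 resistant and resistant knockout ones. Against 3 counts over a group's libraries it was at least 34.7-fold higher in resistant cells (106 reads, adjusted p = 0.00813, edgeR) and at least 15.5-fold higher among knockouts (48 reads, 0.0223). The resistant reads were uneven, at 2, 72 and 32 in libraries 1, 2 and 3, and without resistant library 2 the bound was 16.2-fold; the resistant knockout libraries held 22, 13 and 13. GSTA2 had 0 reads in the parental groups and 21 and 29 in the resistant ones, 19 of the 21 in resistant library 2, and was not called (0.0749 and 0.0635). GSTA1 and GSTA2 are near-identical copies, so the split of reads between them is uncertain, and these bounds cover counting error only. GSTO2, the other omega-class gene, fell by 2.34 (SE 0.51, adjusted p = 0.00496), and PTGES, a prostaglandin E synthase of the membrane family, fell by 2.16 (SE 0.65, 0.0254). Among knockouts GSTA1 and GSTZ1 (0.81 ± 0.23) were higher and 0 were lower, beside 13.6% higher and 10.2% lower over all genes. With 0 reads in the parental groups, GSTA1 could only come out higher in both comparisons.

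Neighbouring protein-coding genes with starts within 500 kb were read next. Around GSTA4 3 of 7 were higher in resistant cells, namely GSTA1, TRAM2 (1.31 ± 0.32) and CILK1 (1.93 ± 0.30), and 0 were lower; FBXO9, 56.6 kb away, differed by -0.13 ± 0.20. Around GSTM3 1 of 19 was higher, GSTM4, and CSF1, a macrophage growth factor, was lower (-2.39 ± 0.46). GSTO1 and GSTO2, whose outermost annotated starts are 33.5 kb apart, moved in opposite directions. The GSTO1 promoter printed above belongs to a RefSeq start further inside the gene, so its distance to GSTO2 differs. These were read beside the 15.2% higher and 12.8% lower over all genes.

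Genes that supply glutathione, use it or export its conjugates were read from gene lists, in resistant against parental cells. Their counts stand beside 15.2% higher and 12.8% lower over all genes. Of 19 genes of glutathione synthesis and turnover 3 were higher and 5 lower. CBS and CTH, consecutive enzymes that make cysteine from homocysteine, moved apart: CBS rose by 8.73 ± 0.76 and CTH fell by 6.14 (SE 0.74), while OPLAH, which recycles 5-oxoproline, rose by 3.53 ± 0.97. The CBS value rests on 1 parental read beside 594 resistant ones, and the OPLAH value on 4 beside 52. The sizes of both rises are therefore uncertain, and both genes passed the filter through the resistant groups. Of 9 glutathione peroxidases and glutaredoxins GLRX rose by 2.80 ± 0.80 and GPX1 fell by 1.34 (SE 0.34). Of 9 conjugate export pumps ABCC5 rose by 1.70 ± 0.47 and ABCC3 fell by 1.81 (SE 0.36). Of 15 NRF2 regulators and targets 3 were higher, HMOX1 (1.43), NQO1 (1.15) and MAFK (1.11), and 3 lower, AKR1C1 (-6.74), MAFF (-2.74) and MAFG (-2.01). The medians of these 4 lists were -0.42, -0.02, 0.27 and -0.40, beside 0.98 for the 10 transferases and 0.02 for all genes. The 7 other transferase genes tested had a median of 0.23, and of 0.81 among knockouts, where the 10 had 0.80. These 7 include GSTA1 and GSTA2, which had 0 reads in both parental groups and could only come out higher. GSTA4, with 7 and 10 reads in those groups, also passed the filter through the resistant ones. The medians of the 7 and of the 10 are therefore not read against each other. The 10 were chosen with earlier results of these data known. Among knockouts the counts were 4 higher and 4 lower, 1 and 1, 0 and 2, and 1 and 2, beside 13.6% higher and 10.2% lower over all genes. In both knockout contrasts edgeR called 0 genes of these lists.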

How the data were processed

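Poly(A) RNA of 12 SKOV-3 libraries was analysed from the raw counts that the authors deposited. The build was GRCh38 and the tools were featureCounts 2.0.1, STAR 2.7.10a and Trim Galore 0.6.10, per the submitters' processing notes. Neither the annotation nor the settings for strand and multiply mapped reads were given in the sources used here. Groups and numbers came from sample titles. In 2 columns the resistant line's name was misspelled, and the remainder of each name assigned them to resistant libraries 2 and 3.

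From the counts, edgeR 4.0.16 (R 4.3.3) kept 17947 genes with filterByExpr and fitted 4 group means over 12 libraries with TMM factors; 5 contrasts were tested by quasi-likelihood (robust) with Benjamini-Hochberg adjustment at 0.05. SE is the absolute log2 fold change over the square root of F. CPM divides counts by the reads of the tested genes times the TMM factor. This denominator replaced one over all reads late in the work, after the values had been seen; no test uses either, and of the 10 genes in the 4 two-group contrasts only GSTP1 in the knockout of resistant cells changed in overlap. Intervals are approximate, at 95%. Coordinates and lengths are from GENCODE release 29.

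The 10 genes and all gene lists were chosen with earlier results of these data known. Named genes are the 10, up to 3 called genes per list by size with at least 1 CPM, KDM5A, KDM5B, and the 3 most similar genes per called gene; other named neighbours and markers were chosen after their values were seen, and not every neighbour that passed is reported here. Same-numbered parental and parental knockout libraries deviated together (r = 0.66, 0.77 and 0.78), so numbers were taken as pairs there. In the resistant groups numbers 1 and 3 did so (0.57 and 0.64) and number 2 did not (-0.19), so pairing there is uncertain. Numbers did not deviate together across backgrounds. No pair of libraries within a group was a duplicate (chi-square over degrees of freedom 24.1 to 194.7). Alternatives were DESeq2 1.42.0, limma-voom (limma 3.58.1), library size alone or median-of-ratios scaling, a filter of 1 count or of 1 CPM in 3 libraries, libraries compared alone, the replicate block, omission of each library in turn, and a minimum log2 change of 1; leaving out both parental libraries numbered 3, a block on the parental libraries alone and CPM over all reads were added after seeing the data.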

Additional observations from a re-analysis of the deposited data

How the results depend on the processing

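The count of called genes in resistant against parental cells, 5, ran from 2 to 6 when each library was left out: 3 without parental library 1, and 2 without parental library 2 or resistant library 2. Calls over all genes fell too in these fits, from 5030 of 17947 to 3800 of 18717, 3081 of 18854 and 3620 of 18806. Among knockouts the count of 3 ran from 3 to 4, and was 5 without both parental libraries numbered 3. Calls over all genes there were 4281 as reported, 2714 to 4696 when each library was left out, and 4945 without both. The count of the 10 genes called was 0 in both knockout contrasts and in their difference under every alternative run. With the replicate block 6 genes were called in resistant against parental cells, GSTM2 added (2.55, adjusted p = 0.0279, edgeR). Among knockouts 4 were called with it, GSTO1 added (0.96, 0.0392 by the same test). Over all genes 5537 and 4789 of 17947 were called with this block. The block changed no other call of the 10 genes. GSTA4 was called in both comparisons, and GSTM3 and GSTM4 among knockouts, under every alternative run. Signs turned for values that had not passed: GSTP1 among knockouts was 0.08 with library size alone, 0.17 without parental knockout library 3, 0.06 without resistant knockout library 2 and 0.13 without both parental libraries numbered 3; GSTK1 among knockouts was 0.16 and 0.12 without the first and the last of these; GSTA4 in the parental knockout was -0.02 without parental library 2. Leaving out each library in turn gave -0.34 to 0.17 for GSTP1, -0.39 to 0.16 for GSTK1 and -0.02 to 2.36 for GSTA4 in these contrasts. The cause was not tested. GSTA4 had no value in the parental knockout contrast with libraries compared alone or with the block on parental libraries, as it did not pass the filter there. Over all genes, calls in the parental knockout were 0 with edgeR, 11 with DESeq2, 1 with limma-voom, 83 with the 1-count filter, 154 with the replicate block within backgrounds and 1206 with that block on the parental libraries alone. With library size alone the calls among knockouts split into 2928 higher and 1368 lower, against 2445 and 1836. Depth limits the values of GSTA4, GSTA1, GSTA2, CBS and OPLAH, of which each parental group held at most 10 reads.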
